A study of Bos taurus with 23 samples.

Results

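The genes described here are the inflammatory cytokines IL1B (ENSBTAG00000001321), TNF (ENSBTAG00000025471), IL6 (ENSBTAG00000014921) and CXCL8 (ENSBTAG00000019716), 4 of the 18897 genes counted in explants of bovine endometrium. They were chosen by identifier, as the usual messages of tissue inflammation, to ask whether the explants respond in them to interferon tau or to a conceptus. All 4 passed the filter on low counts, which left 15227 genes for testing. The files hold identifiers alone, so the pairing of the 4 symbols with them, which came with the choice of genes, could not be checked against the data.

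IL1B and TNF are early alarm cytokines, made mainly by macrophages and other leukocytes and acting through NF-kappaB signalling on neighbouring cells. IL6 and CXCL8 are induced downstream of them in stromal and epithelial cells as well as leukocytes: IL6 drives the acute phase response, and CXCL8 is the chemokine that draws neutrophils. In cattle, the elongating conceptus signals pregnancy to the uterus through interferon tau, which acts by the type I interferon receptor and induces interferon-stimulated genes in the endometrium. A balance of inflammatory signals there is known to accompany early pregnancy.

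The study cultured pieces of intercaruncular endometrium, the gland-bearing tissue between the caruncles, for 6 h. Explants stayed in medium alone (Control, n = 6) or received recombinant ovine interferon tau at 100 ng/mL (IFNT, n = 6), and the others were cultured with a conceptus collected on Day 15 after transfer of a blastocyst, which had developed in vivo (AI, n = 4) or had been produced in vitro (IVF, n = 7). AI conceptuses were 21 to 31 mm long, 3 female and 1 male; IVF conceptuses were 8 to 54 mm long, 2 female and 5 male. All groups shared the same medium and a pre-culture of varying length, and no group was an endometrium frozen without culture. Cow age and breed are not given in the labels.

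Titles carry a U number, taken here as the uterus. Control and IFNT hold numbers 1, 2, 3, 4, 5 and 10, AI holds 1 to 4, and IVF holds 1, 2, 3, 4, 5, 7 and 10. Libraries with the same number deviated together from their group means in all 30 same-number pairs, with correlations across genes of 0.154 to 0.712 (median 0.509). Library totals ran from 19461678 to 36730378 counts over the 23 libraries, and no pair of libraries agreed within sampling noise. In the following, levels are CPM, the read counts scaled to a common library size with TMM factors, differences are log2 fold changes with their standard errors, and a gene was called at a Benjamini-Hochberg adjusted p under 0.05 over all genes tested with edgeR's quasi-likelihood F test. Levels are compared between groups for 1 gene at a time, since gene lengths were not used. Markers that would check the tissue or count leukocytes could not be looked up by identifier, so they were not analysed here.

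The IVF explants numbered 3 and 4 stood apart from all other libraries. Their IL1B levels were 70.3 and 89.2 CPM, where the other 21 libraries reached 22.6 CPM at most. IL6 was 277.3 and 199.3 CPM in them, against a highest level of 146.6 CPM elsewhere. For CXCL8 they held 189.1 and 166.1 CPM, above 102.3 CPM, the highest of the rest. Both libraries were thus above all other libraries in 3 of the 4 cytokines, a pattern shown by 0.722% of the 15227 genes. TNF differed: the IVF explant numbered 4 was the highest library at 2.01 CPM, and the one numbered 3, at 0.803 CPM, lay within the range of the others. The titles of these 2 explants share a code. Sharing a code is not particular to them: the IVF explants of uteri 1 and 2 share another, all 4 AI explants share one more, and neither set stood apart. What the code stands for is not given. Whether explants that share a code, the 4 AI explants included, are independent of each other could therefore not be told. The SDs, standard errors and p-values given for AI and IVF treat them as independent. The 2 high IVF explants had conceptuses of 21 and 19 mm, 1 male and 1 female. The Control, IFNT and AI explants of uteri 3 and 4 were not set apart in the same way. Comparisons that use IVF are therefore given with and without these 2 libraries, an alternative chosen after their values were seen. They were left out for their high IL1B, IL6 and CXCL8, which lowers the IVF levels and the spread of these genes. Calls of these genes made without them are descriptions, not tests.

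**Figure D1:**
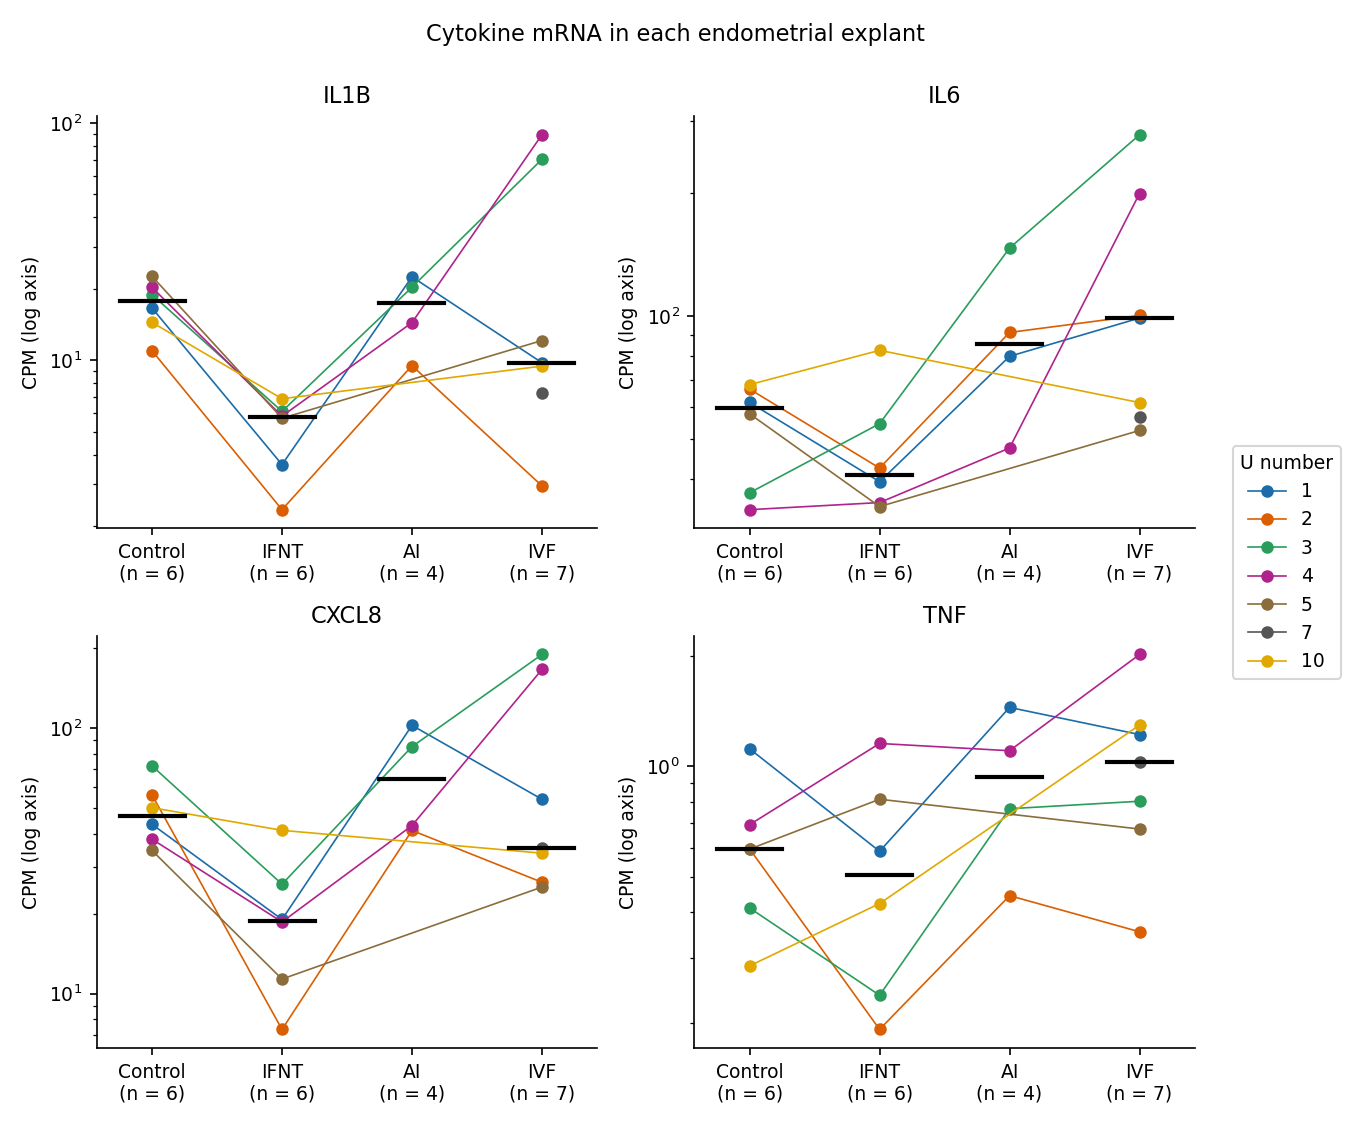
Level of each cytokine (CPM, log scale) in every library, by group, with 1 panel per gene. The IVF explants numbered 3 and 4 lie above all other libraries in IL1B, IL6 and CXCL8, and the 6 IFNT explants lie below all 6 Control explants only in IL1B.

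Interferon tau was accompanied by lower IL1B and CXCL8 in each of the 6 uteri with Control and IFNT explants, while IL6 and TNF showed no common direction. IL1B passed the threshold only in some of the fits described next, and CXCL8 in fewer. In Control explants the lowest, median and highest IL1B levels were 10.96, 17.7 and 22.6 CPM. With interferon tau they were 2.34, 5.75 and 6.88 CPM. The ranges did not overlap, as was so in this direction for 0.158% of the 15227 genes. Group means were 17.3 ± 4.20 CPM in Control and 5.07 ± 1.72 CPM in IFNT (SD, n = 6 each). Fewer cells of a type and less message per cell cannot be told apart in such bulk samples. Within uteri, IL1B was lower with interferon tau by factors of 4.50, 4.57, 3.08, 3.46, 3.93 and 2.09 in uteri 1, 2, 3, 4, 5 and 10. The smallest of these paired falls was thus still above 2-fold. The paired log2 difference was -1.80 ± 0.42 (SD, 6 pairs), with an exact two-sided sign-flip p of 0.0312, the smallest that 6 pairs allow. After adjustment over all genes it was 0.257, the lowest value reached, so no gene passed in this test. That value is shared by all genes with 1 direction in all 6 pairs, 913 lower and 938 higher. Lower levels in all 6 pairs were seen in 6.00% of genes.

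In the model of all 23 libraries, IL1B was 3.41-fold lower with interferon tau (log2 -1.77 ± 0.60), with an edgeR adjusted p of 0.176, and so was not called. Its fold change was the 8th lowest of the 15227 genes, among which the median was -0.01. That model estimates 1 spread for each gene from all groups, including the IVF group with its 2 high libraries. With the uterus as a term, the block by U number, the value was -1.82 ± 0.50 and edgeR's adjusted p 0.0396. Fitted to the 12 Control and IFNT libraries alone, it was -1.77 ± 0.26 with an adjusted p of 0.000843, and without the 2 high IVF libraries it was -1.76 ± 0.31 with 0.000852. DESeq2 gave -1.77 ± 0.56 with 0.0405. The size therefore hardly moved between fits, while its standard error fell from 0.60 to 0.26 when only the compared groups were used. In that 12-library fit, leaving out each library in turn kept edgeR's adjusted p between 0.000448 and 0.00301 and the log2 change between -1.87 and -1.61. The blocked call on all libraries was less firm: it was lost when uterus 1, 2, 3, 5 or 10 was left out (edgeR adjusted p 0.129, 0.0777, 0.0979, 0.0925 and 0.0514). Genes called lower made up 0.144% of those tested in the model of all libraries, 1.12% with the block, 0.0897% in the 12-library fit, 0.119% without the 2 high libraries and 0.289% with DESeq2.

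CXCL8 followed IL1B in direction but was more variable. Its Control levels were 34.6 at the lowest, 46.8 at the median and 72.0 CPM at the highest, and with interferon tau they were 7.34, 18.8 and 41.2 CPM. The ranges overlapped through 1 IFNT library, that of uterus 10. Paired log2 differences were -1.19, -2.92, -1.48, -1.03, -1.60 and -0.28 in uteri 1, 2, 3, 4, 5 and 10, so uterus 10 hardly differed while uterus 2 differed most. Their mean was -1.42 ± 0.87 (SD, 6 pairs), with an exact two-sided sign-flip p of 0.0312 and 0.257 over all genes. These are the same shared lowest values as for IL1B. The model of all libraries gave a 2.39-fold lower level (log2 -1.25 ± 0.49; edgeR adjusted p 0.326), not called, and the block gave -1.41 ± 0.42 (0.0627), not called either. CXCL8 passed with the block in 3 settings: without uterus 10 (-1.71, edgeR adjusted p 0.0251), without the 2 high IVF libraries (-1.38 ± 0.27, edgeR adjusted p 0.00478) and in the 12-library fit (-1.40 ± 0.29, edgeR adjusted p 0.0259). Genes called lower made up 0.771% without the 2 high libraries and 0.787% in the 12-library fit, both blocked. In the blocked fit of all uteri they made up 1.12%. DESeq2 called CXCL8 only with the block (-1.43 ± 0.44, adjusted p 0.0212), where 2.40% of genes were called lower. In the unblocked 12-library fit, where 0.0897% of genes were called lower, CXCL8 was not called (-1.25 ± 0.35, edgeR adjusted p 0.0938). Leaving out the IFNT explant of uterus 10 there gave -1.58 ± 0.30 and an edgeR adjusted p of 0.00952.

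IL6, which lies downstream of IL1B signalling in many cells, showed no common direction across uteri. Levels were 33.7, 59.6 and 68.0 CPM in Control and 34.3, 41.0 and 82.5 CPM in IFNT (lowest, median and highest). IL6 was lower with interferon tau in 3 uteri and higher in 3, with paired log2 differences between -0.75 and 0.56. The model value was -0.17 ± 0.37 (edgeR adjusted p 0.999), and -0.25 ± 0.35 with the block (0.800).

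TNF message was scarce, with 5 to 58 reads per library, so single libraries carry wide counting error: the 5 reads of the IFNT explant of uterus 2 have an exact 95% Poisson interval of 1.62 to 11.7 reads, for counting error only. Control levels were 0.286, 0.595 and 1.12 CPM and IFNT levels 0.192, 0.505 and 1.15 CPM (lowest, median and highest). Uteri 1, 2 and 3 had less TNF with interferon tau, and uteri 4, 5 and 10 more. The log2 change was -0.11 ± 0.45 (edgeR adjusted p 0.999). Over the 4 cytokines, 0 were called in the model of all libraries and 1, IL1B, with the block, and their median log2 change in the former was -0.71 beside -0.01 over all genes. In the RefSeq annotation of the assembly ARS-UCD2.0, TNF lies between LTB and LTA and overlaps a long non-coding RNA gene. The strand setting of the counting is not given, so reads of these overlapping genes could not be told apart.

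**Figure D2:**
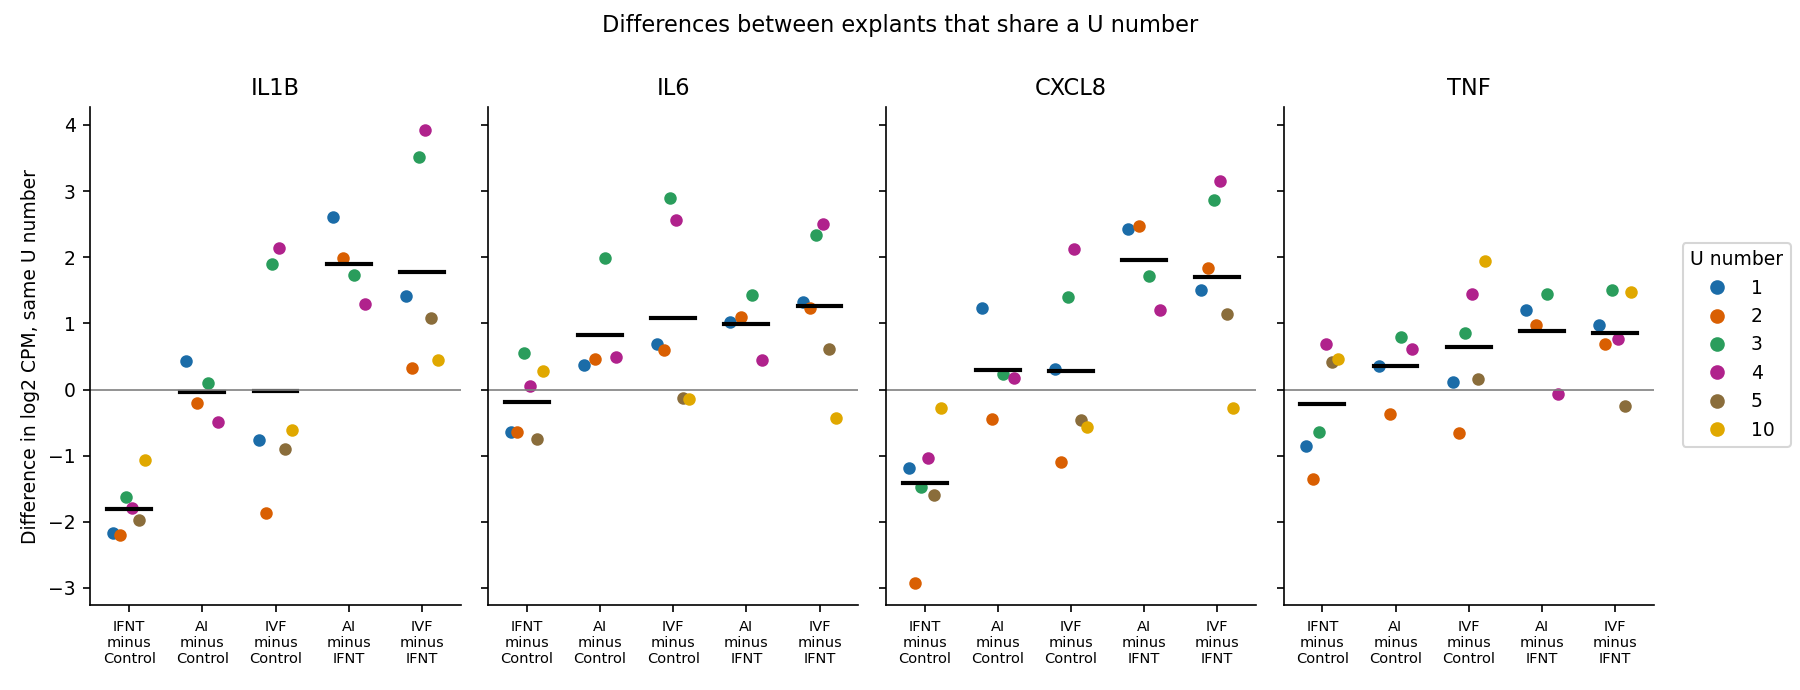
Log2 difference within each uterus (y axis) for IFNT, AI and IVF explants against Control and for AI and IVF against IFNT, 1 panel per gene, with points for single uteri and bars for their means. For IFNT minus Control all 6 points of IL1B and of CXCL8 lie below 0, whereas IVF minus Control points of IL1B split into 4 below and 2 above.

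The AI conceptus was compared with Control to ask whether a conceptus that began in vivo alters these messages. No cytokine was called. IL1B lay close to Control: the AI explants of uteri 1 to 4 held 22.5, 9.49, 20.3 and 14.4 CPM, and 3 of these 4 values fell inside the Control range. The mean was 16.7 ± 5.87 CPM (SD, n = 4), and the log2 change -0.05 ± 0.65 (edgeR adjusted p 0.990). The missed threshold does not show equal levels, since the standard error of 0.65 leaves room for change in either direction.

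IL6 was the only one of the 4 that was higher beside the AI conceptus in every uterus, as 19.6% of all genes were. The 4 AI explants held 79.8, 91.2, 146.6 and 47.6 CPM in uteri 1 to 4, and each was above its own Control, with log2 differences of 0.37, 0.46, 1.98 and 0.50. Uterus 3 gave most of the mean of 0.83 ± 0.77 (SD, 4 pairs; exact two-sided sign-flip p = 0.125, the smallest that 4 pairs allow). The model gave 1.69-fold more IL6 (log2 0.76 ± 0.41; edgeR adjusted p 0.493), and 0.58 ± 0.41 with the block (0.409).

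CXCL8 in the AI explants was 102.3, 41.16, 85.1 and 42.9 CPM in uteri 1 to 4, with 2 values above every Control library and 2 inside the Control range. Its log2 change was 0.47 ± 0.54 (edgeR adjusted p 0.829). TNF, at 1.45, 0.444, 0.766 and 1.10 CPM, changed by 0.61 ± 0.49 on the log2 scale without being called (edgeR adjusted p 0.718). Over all genes, 2.75% were called higher in AI than in Control, and 0 of the 4 cytokines were.

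The IVF conceptus was the group in which the outcome depended on the 2 high libraries. IL1B had levels of 2.95, 9.76 and 89.2 CPM (lowest, median and highest of 7), with a mean of 28.7 ± 35.4 CPM; without the explants numbered 3 and 4 the mean was 8.31 ± 3.45 CPM (SD, n = 5). Against the Control of the same uterus, IL1B differed by -0.76, -1.87, -0.90 and -0.61 in uteri 1, 2, 5 and 10, and by 1.89 and 2.13 in uteri 3 and 4. IL1B was thus lower beside the IVF conceptus in 4 uteri and higher in 2. The model of all libraries averaged them to a log2 change of 0.73 ± 0.56 (edgeR adjusted p 0.745). Without the 2 libraries the sign turned, to -1.08 ± 0.32 (edgeR adjusted p 0.0913), and with the uterus as a term it was -1.09 ± 0.22, called lower (edgeR adjusted p 0.00665). Called-lower shares in those fits were 0.257% without the block and 0.995% with it. Since the 2 libraries were left out for their high IL1B, the turned sign and the call only describe the other IVF explants.

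IL6 came nearest to a call against Control with all IVF libraries. The 7 IVF levels ran from 52.6 over a median of 98.9 to 277.3 CPM. Paired differences were 0.68, 0.60, 2.90 and 2.56 in uteri 1 to 4 and -0.13 and -0.15 in uteri 5 and 10, so the higher values came from uteri 1 to 4 and were largest in the 2 high libraries. The model gave 2.24-fold more IL6 (log2 1.16 ± 0.37; edgeR adjusted p 0.100), and 1.16 ± 0.36 with the block (0.0628). DESeq2 called it (1.15 ± 0.36, adjusted p 0.0338), where 3.40% of genes were called higher, against 2.92% in edgeR's model. Leaving out the IVF explant of uterus 5 also brought IL6 past the threshold (1.29 ± 0.36, edgeR adjusted p 0.0491), as did leaving out uterus 5 or 10 with the block (0.0411 and 0.0322). With the block and all libraries, 794 of 15227 genes were called higher. Without the explants numbered 3 and 4 the IL6 change was 0.43 ± 0.29 (edgeR adjusted p 0.623).

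CXCL8 likewise split between uteri beside the IVF conceptus. Its levels were 25.2, 35.3 and 189.1 CPM (lowest, median and highest), and the paired differences were positive in uteri 1, 3 and 4 and negative in uteri 2, 5 and 10. The log2 change was 0.63 ± 0.47 (edgeR adjusted p 0.734) and turned to -0.52 ± 0.36 (0.634) without the 2 high libraries. TNF was 0.354, 1.03 and 2.01 CPM and higher than the Control of the same uterus in 5 of 6 uteri, uterus 2 being the exception. Its log2 change of 0.78 ± 0.43 was not called (edgeR adjusted p 0.549), nor was 0.55 ± 0.46 without the 2 high libraries (0.717).

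**Figure D3:**
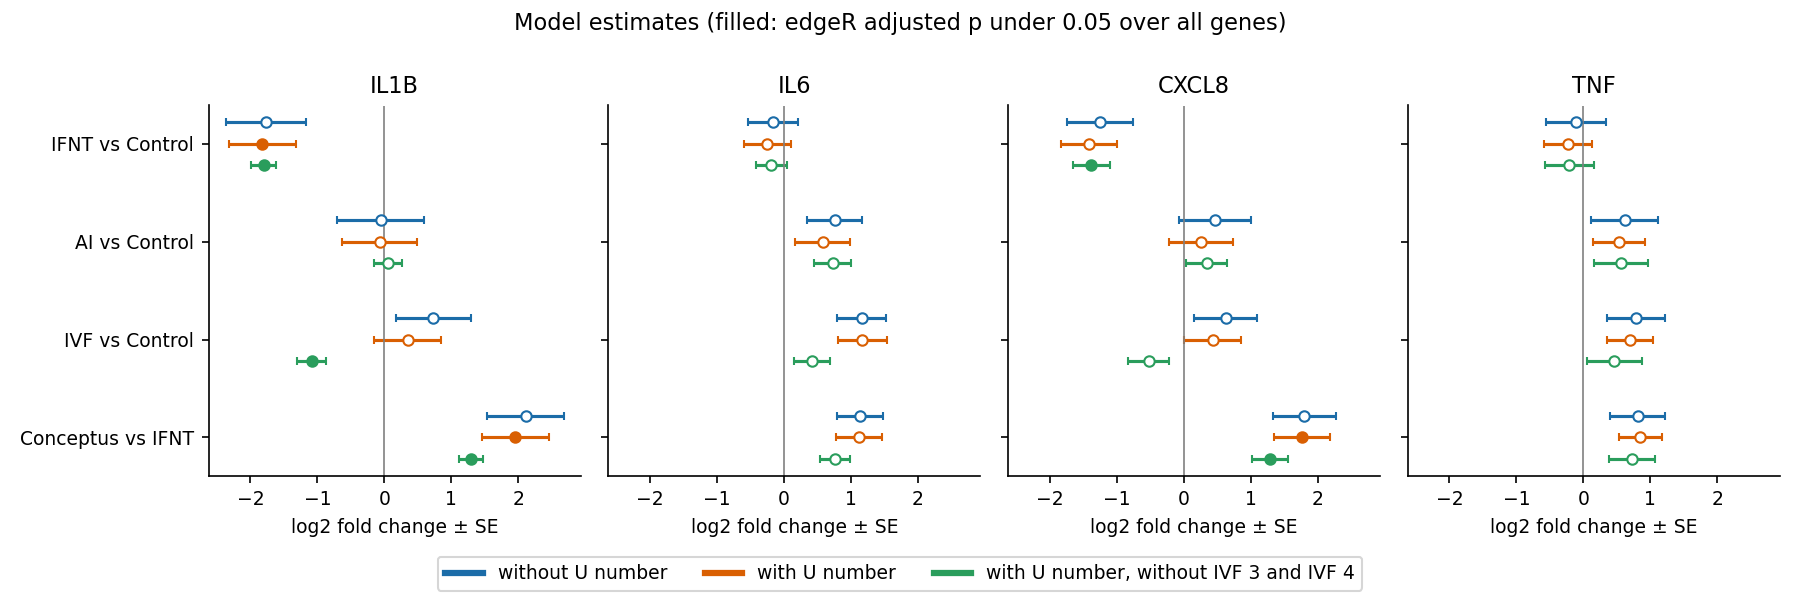
Log2 fold change of each cytokine with its standard error (bars) in the comparisons between groups, for the model of all libraries, the model with the uterus as a term, and that model without the IVF explants numbered 3 and 4; filled points had an edgeR adjusted p under 0.05. IL1B in IFNT against Control is -1.77, -1.82 and -1.80 in the 3 fits, and in IVF against Control it is 0.73, 0.35 and -1.09 in the same order.

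Explants with a conceptus were next compared with explants given interferon tau alone, which asks whether the conceptus differs from its main signal in these messages. This comparison shares the IFNT libraries with the one against Control above, so the low IFNT levels of IL1B and CXCL8 enter both. All 4 AI explants held more IL1B than any of the 6 IFNT explants, a separation found for 1.83% of genes. CXCL8 missed the same separation by 1 library, since the AI explant of uterus 2 had 41.16 CPM and the IFNT explant of uterus 10 had 41.20 CPM. Against the IFNT explant of the same uterus, IL1B in AI was higher by 2.61, 1.99, 1.73 and 1.30 on the log2 scale and CXCL8 by 2.42, 2.48, 1.72 and 1.20 in uteri 1 to 4. IL6 was higher in all 4 pairs as well, by 0.44 to 1.42, and TNF in 3 of 4. With 4 pairs the exact sign-flip p cannot go below 0.125, and 16.2% of all genes were higher in every AI pair.

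In the IVF pairs, IL1B was higher than with interferon tau in 6 of 6 uteri, by 1.41, 0.32, 3.52, 3.92, 1.08 and 0.45 in uteri 1, 2, 3, 4, 5 and 10. The exact two-sided sign-flip p was 0.0312, and 0.627 over all genes. These lowest values are shared by all genes with 1 direction in all 6 pairs, 305 lower and 454 higher. A higher level in every IVF pair was seen in 2.98% of genes. Uteri 2 and 10 were close to no difference, and uteri 3 and 4, with the 2 high libraries, were far above it. CXCL8, IL6 and TNF were each higher in 5 of 6 pairs (exact p = 0.0625 for each).

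With AI and IVF averaged, IL1B was 4.31-fold higher than with interferon tau (log2 2.11 ± 0.57), CXCL8 3.49-fold (1.80 ± 0.47), IL6 2.19-fold (1.13 ± 0.34) and TNF 1.75-fold (0.81 ± 0.41). None was called by edgeR without the block (adjusted p 0.199, 0.199, 0.244 and 0.524). That fit called 0% of the 15227 genes, although 1524 had an unadjusted p under 0.05, and DESeq2 called 110. DESeq2 called IL1B (2.10 ± 0.50, adjusted p 0.0137) and CXCL8 (1.80 ± 0.42, 0.0132), where 0.434% of genes were called higher. With the uterus as a term edgeR also called both higher, IL1B by 1.96 ± 0.49 (adjusted p 0.0290) and CXCL8 by 1.76 ± 0.42 (0.0221), whereas IL6 at 1.12 ± 0.34 (0.0594) and TNF at 0.85 ± 0.32 (0.127) were not called. In that blocked fit 4.30% of genes were called higher, and the median log2 change was 1.44 over the 4 cytokines and 0.0029 over all genes.

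Without the high IVF libraries the blocked changes were smaller, at 1.29 ± 0.18 for IL1B (edgeR adjusted p 0.0174) and 1.29 ± 0.26 for CXCL8 (0.0352). Both were under the threshold, where 1.17% of genes were called higher. Since these libraries were left out for their high IL1B and CXCL8, the 2 calls are descriptions, not tests. IL6 at 0.76 ± 0.23 (0.0896) and TNF at 0.73 ± 0.34 (0.268) were again not called there. Without the block and these libraries, edgeR called none of the 4, at 1.19 for IL1B, 1.22 for CXCL8, 0.75 for IL6 and 0.68 for TNF. The blocked calls of IL1B and CXCL8 with the high libraries kept in were lost when 1 of 3 uteri was left out. Without uterus 1, 3 or 4 edgeR's adjusted p was 0.0942, 0.136 and 0.110 for IL1B and 0.0901, 0.126 and 0.0991 for CXCL8. IL6 in turn was called higher with the block when uterus 10 was left out (1.36 ± 0.32, edgeR adjusted p 0.0307). With all uteri the blocked fit called 4.30% of genes higher. Taken apart by origin, CXCL8 in AI was called higher than in IFNT with the block (1.67 ± 0.49, edgeR adjusted p 0.0490), where 4.91% of genes were called higher, and IL1B was not (1.75 ± 0.58, 0.0769). DESeq2 with the block called both in AI (adjusted p 0.0328 for IL1B and 0.0158 for CXCL8), where 7.07% of genes were called higher.

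For IVF alone against IFNT the tools differed. In edgeR's blocked fit, which called 0.0131% of genes higher, IL1B at 2.17 ± 0.53 (adjusted p 0.0883), CXCL8 at 1.85 ± 0.44 (0.0845) and IL6 at 1.42 ± 0.36 (0.104) were not called. DESeq2 called IL1B without the block (2.50 ± 0.54, adjusted p 0.0115), where 0.0394% of genes were called higher, and IL1B, IL6 and CXCL8 with it (0.00473, 0.00441 and 0.00495), where 1.67% were. These values rested largely on the 2 high libraries. Without them edgeR's blocked log2 changes were 0.72 ± 0.21 for IL1B, 0.86 ± 0.31 for CXCL8, 0.61 ± 0.27 for IL6 and 0.68 ± 0.42 for TNF, and 0% of genes were called higher (lowest adjusted p of the 4, 0.594). Without the block they were 0.67, 0.73, 0.59 and 0.65 in the same order.

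A test of all 4 groups at once, edgeR's F test of the treatment group, gave F values of 5.69 for IL1B, 6.05 for IL6, 5.25 for CXCL8 and 1.99 for TNF (adjusted p 0.108, 0.0899, 0.138 and 0.673), with 3.29% of genes called. With the uterus as a term IL1B, IL6 and CXCL8 passed (edgeR adjusted p 0.0442, 0.0459 and 0.0407), TNF did not (0.199), and 12.2% of genes were called. IL6 also passed without the block when uterus 10 was left out (edgeR adjusted p 0.0385), where 491 of 15161 genes were called. Without the 2 high libraries the blocked F value of IL1B was 38.4 (edgeR adjusted p 3.02e-05), of CXCL8 12.1 (0.00793) and of IL6 4.71 (0.114), with 8.78% of genes called. In the blocked fit IL6 thus passed only with those libraries, and IL1B and CXCL8 passed with and without them. The libraries were left out for their values of these genes, so the F values without them are descriptions.

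The origin of the conceptus gave no call for any cytokine. AI and IVF explants share no title code, so origin and code cannot be told apart. AI against IVF was -0.79 ± 0.65 for IL1B, -0.41 ± 0.41 for IL6, -0.16 ± 0.53 for CXCL8 and -0.16 ± 0.48 for TNF on the log2 scale. There edgeR called 0% of all genes, 343 having an unadjusted p under 0.05. DESeq2 called 0 without the block and 85 with it, none of the 4 cytokines among them. IL6 was lower beside the AI than beside the IVF conceptus in 4 of 4 uteri, by 0.14 to 2.06 (exact sign-flip p = 0.125), as 6.42% of all genes were. The 2 largest of these differences, 0.92 and 2.06, were those from the 2 high IVF libraries. IL1B and CXCL8 were higher beside the AI conceptus in uteri 1 and 2 and lower in uteri 3 and 4. Without the 2 high libraries all 4 values turned positive, IL1B to 1.03 ± 0.35 and CXCL8 to 0.98 ± 0.39, still not called.

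Conceptus sex showed no called difference either. Explants with a male conceptus (n = 6) held 20.5 ± 24.5 CPM of IL1B and those with a female one (n = 5) 28.9 ± 34.6 CPM (SD). The log2 values, male against female, were -0.49 ± 0.62 for IL1B, -0.32 ± 0.39 for IL6, -0.41 ± 0.50 for CXCL8 and 0.02 ± 0.46 for TNF (lowest edgeR adjusted p 0.864). This fit had no term for AI or IVF. Since 5 of the 6 male conceptuses were IVF and 3 of the 5 female ones AI, sex and origin were partly mixed in it. Of the 15099 genes tested by sex 0% were called, with 1089 at an unadjusted p under 0.05. DESeq2 called 0 without the block and 18 with it, again none of the cytokines. The 2 high IVF libraries fell 1 in each sex, and without them the values were -0.41 ± 0.41, -0.75 ± 0.28, -0.77 ± 0.41 and 0.47 ± 0.50 in the same order, not called (lowest edgeR adjusted p 0.506).

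Length of the conceptus was tested as a slope per doubling in mm over the 11 conceptus explants, with AI and IVF as a term. Slopes were -0.34 ± 1.13 for IL1B, -0.46 ± 0.42 for IL6, -0.22 ± 0.66 for CXCL8 and 0.24 ± 0.38 for TNF (edgeR adjusted p 0.998 for each). edgeR called 0% of 14822 genes, with 461 at an unadjusted p under 0.05. The 2 high libraries lay in the middle of the length range, and without them the slopes were 0.41 ± 0.28 for IL1B, -0.36 ± 0.19 for IL6, -0.0049 ± 0.23 for CXCL8 and 0.32 ± 0.34 for TNF, not called.

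**Figure D4:**
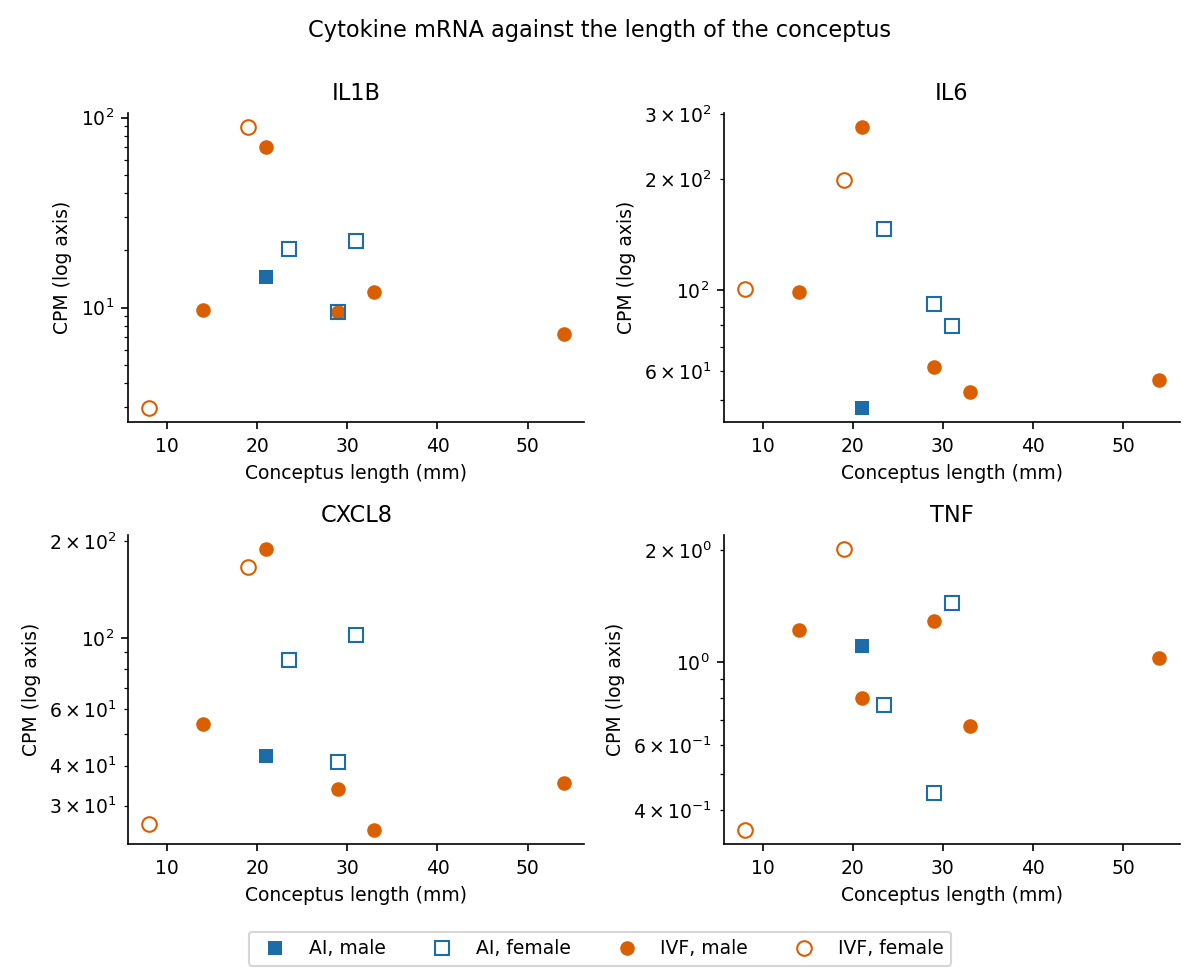
Level of each cytokine (CPM, log scale) against conceptus length (mm) in the 4 AI and 7 IVF explants, open symbols marking female conceptuses. The 2 high IVF libraries sit at 21 and 19 mm, between shorter and longer IVF conceptuses with lower IL1B, IL6 and CXCL8.

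The uterus was a source of spread of its own. Of the variance of log2 CPM, group took 36.9% for IL1B, 38.4% for IL6, 43.6% for CXCL8 and 24.3% for TNF, and the uterus after group took 32.4%, 18.5%, 27.2% and 48.1%. For the median of all kept genes these shares were 11.9% and 51.8%. Group thus took a larger share, and the uterus a smaller one, in each of the 4 cytokines than at that median. All 23 libraries, the 2 high IVF ones included, enter these shares, and no shares without the 2 are given. In edgeR's F test of the uterus, which called 54.8% of genes, TNF was called (F 3.41, adjusted p 0.0414), and IL1B (2.87, 0.0682), CXCL8 (2.52, 0.0954) and IL6 (1.46, 0.296) were not. TNF lost that call without uterus 1, 2, 3 or 4 (adjusted p 0.100, 0.118, 0.0888 and 0.123), without the 2 high libraries (0.107) and without the filter on low counts (0.0527). Without those 2 libraries IL1B was called instead (F 6.78, edgeR adjusted p 0.00744), as it was without uterus 4 (0.0427), and CXCL8 was called without uterus 4 or 10 (0.0452 and 0.0414). Such calls were common: 6557 of 15171 genes without the 2 libraries, 6794 of 15326 without uterus 4 and 7854 of 15161 without uterus 10.

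Mean deviations from the group means describe the uteri. For IL1B uterus 2 was lowest, at -1.16 on the log2 scale, followed by uterus 7, with its single explant, at -1.01, and uteri 3 and 4 were highest, at 0.78 and 0.75. The 2 high IVF libraries carry much of this order: without them uterus 2 stayed lowest at -0.92, uterus 7 lay at -0.047, uteri 3 and 4 at 0.29 and 0.14, and uterus 5 was highest at 0.45. For TNF uterus 2 was again lowest at -0.79 and uterus 4 highest at 0.69, and without the 2 libraries uterus 2 was at -0.74 and uteri 1 and 4 highest at 0.59 and 0.58. The explants of uterus 2 held the lowest IL1B of their group in Control, IFNT, AI and IVF alike.

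Across the 7 uteri, the deviations of IL1B and CXCL8 had a Pearson r of 0.73 (exact permutation p = 0.0804, 0.241 after adjustment over 6 pairs of genes) and a Spearman rho of 0.64 (exact p = 0.139), and r was 0.47 without the 2 uteri farthest from the median. IL6 and CXCL8 had r of 0.71 (exact p = 0.0665, adjusted 0.241) and rho of 0.57 (exact p = 0.200), with r of 0.35 without the 2 farthest uteri. The other 4 pairs of genes gave r between -0.44 and 0.42, and none of the 6 relations passed. Without the 2 high libraries r fell to 0.40 for IL1B and CXCL8 (exact p = 0.453, adjusted 0.680) and 0.48 for IL6 and CXCL8 (exact p = 0.268, adjusted 0.537). Over the 23 single libraries, which share uteri, groups and scaling, r of log2 CPM was 0.87 for IL1B and CXCL8, 0.74 for IL6 and CXCL8, 0.57 for IL1B and IL6, 0.51 for IL1B and TNF, 0.44 for CXCL8 and TNF and 0.24 for IL6 and TNF. In the 21 libraries without the 2 high ones these values were 0.78, 0.55, 0.16, 0.40, 0.33 and 0.030 in the same order, so the likeness of IL1B and IL6 rested mostly on those libraries. Over the 23 libraries no other kept gene had a higher r with IL1B than CXCL8 had, and 1 had a higher r with CXCL8 than IL1B had.

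Beyond the 4 cytokines themselves, the gene whose log2 CPM over the 23 libraries was most like that of each can be given by identifier only. Each was picked for its likeness in these libraries, so a shared group pattern is a description. For CXCL8 it was ENSBTAG00000009812 (r = 0.90), at 98.3 ± 40.7 CPM in Control, 35.9 ± 18.1 in IFNT, 181.8 ± 140.6 in AI and 166.3 ± 157.4 in IVF (SD). For IL6 it was ENSBTAG00000037778 (r = 0.86), at 114.5 ± 36.6 CPM in Control, 62.9 ± 21.0 in IFNT, 206.3 ± 106.7 in AI and 339.2 ± 323.1 in IVF. For IL1B it was ENSBTAG00000046924 (r = 0.83), at 66.1 ± 22.7 CPM in Control, 35.9 ± 17.5 in IFNT, 47.5 ± 7.23 in AI and 58.3 ± 40.3 in IVF. These 3 genes had their lowest mean with interferon tau. For TNF it was ENSBTAG00000018367 (r = 0.80), whose lowest mean was in Control, at 0.865 ± 0.494 CPM, against 0.910 ± 0.658 in IFNT, 1.29 ± 0.859 in AI and 1.08 ± 0.524 in IVF. Without the 2 high libraries r was 0.87, 0.70, 0.73 and 0.85 for the nearest genes of CXCL8, IL6, IL1B and TNF.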

How the data were processed

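Whole-number read counts per gene for 23 libraries were deposited by the authors, not normalized, with Ensembl identifiers; the library kit was TruSeq stranded mRNA, per the labels' protocols. Tools listed in the submitters' processing notes are HISAT2, StringTie and edgeR, and the build is UMD3.1. How reads were counted (tool, annotation, strand, filters) was not given in the sources used here. Groups, U numbers, sex and length came from titles and labels.

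The analysis used edgeR 4.0.16 in R 4.3.3. Low genes were dropped by filterByExpr (leaving 15227, or 15099 for the groups by sex), TMM scaled the libraries, and 1 model held all 23 libraries with the group as the only term. Quasi-likelihood F tests gave p-values, adjusted by Benjamini-Hochberg over all genes and called under 0.05. Levels are CPM, and log2 CPM used a prior count of 2. Same-numbered libraries pair (30 of 30 correlations of their deviations from group means were over 0.1, lowest 0.154; different numbers had a median of -0.112), so a fit with the U number as a block is given where it changes a call. Paired differences had exact two-sided sign-flip tests (24 tests). Alternatives were DESeq2 1.42.0, median-ratio scaling, no filter, other prior counts, the compared groups alone, and leaving out each library or uterus. The scripts were tested on simulated data. Labels do not say how explants of a group were made independent beyond the U number, so p-values measure the spread between these samples. The labels give no sequencing run or date.

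The members and lists were chosen with earlier results of these data known. The rule for named genes was the 4 members, in every comparison, and for each the gene of highest correlation over 23 libraries. The reference table of ARS-UCD2.0 matched 0 of 18897 identifiers, so lists of pathway genes and of cell type markers could not be applied, no position is given, and no sequence is shown.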

Additional observations from a re-analysis of the deposited data

How the results depend on the processing

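Interferon tau against Control kept a negative sign for IL1B, CXCL8 and IL6 in all 47 alternatives, and conceptus against interferon tau kept a positive sign for the 4 genes in all 39. Counts of called genes moved more: 489 for interferon tau against Control (22 lower) became 875 (171 lower) with the block and 569 (44 lower) with DESeq2, 480 for AI became 1709 and 513 for IVF 1134 with the block, and 0 for conceptus against interferon tau became 990 with the block and 110 with DESeq2. The cause was not tested.

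Values that gained a call, lost one or turned sign, as log2 changes unless named otherwise, follow by setting. With the replicate block, IL1B against Control was -1.82 with interferon tau, IL1B and CXCL8 against interferon tau were 1.96 and 1.76, TNF by sex was -0.073, and the treatment F values were 6.17 for IL1B, 6.34 for CXCL8 and 6.08 for IL6. With DESeq2, IL1B with interferon tau was -1.77, IL1B and CXCL8 against interferon tau 2.10 and 1.80, IL6 with IVF 1.15, and IL1B with IVF against interferon tau 2.50. With both together, IL1B and CXCL8 with interferon tau were -1.83 and -1.43, and IL1B, CXCL8 and IL6 against interferon tau 1.95, 1.76 and 1.12. IL6 with IVF was 1.15, IL6 with AI and IVF averaged against Control 0.85 and TNF by sex -0.094. Of 15227 genes, that setting called 997 higher against interferon tau, 988 with IVF and 1449 with AI and IVF averaged against Control. The calls for AI and IVF apart against interferon tau are given above. In the compared groups alone, IL1B was -1.77, and with the block -1.81, CXCL8 being -1.40. Without the filter, TNF lost its call for the uterus (F 3.30, edgeR adjusted p 0.0527).

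Without the IVF explants numbered 3 and 4, chosen after seeing the data, values without and with the block were -1.76 and -1.80 for IL1B with interferon tau, -1.08 and -1.09 for IL1B with IVF, -0.52 and -0.52 for CXCL8 with IVF, and for AI against IVF 1.03 and 1.14 (IL1B), 0.98 and 0.86 (CXCL8), 0.33 and 0.31 (IL6) and 0.058 and 0.10 (TNF). Treatment F values were 13.5 and 38.4 for IL1B and 7.79 and 12.1 for CXCL8. With the block only, CXCL8 with interferon tau was -1.38, IL1B with AI 0.057, IL1B and CXCL8 against interferon tau 1.29 and 1.29, and TNF by sex -0.067. Without it, the uterus F values were 6.78 for IL1B and 2.61 for TNF the length slope of IL1B was 0.41, and r over uteri was -0.24 for IL1B and IL6.

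Leaving out 1 library or uterus, with or without the block, gave these ranges. With interferon tau, IL1B ran from -2.004 to -1.61, CXCL8 from -1.71 to -1.04 and TNF from -0.47 to 0.13. With AI, IL1B ran from -0.40 to 0.12 and CXCL8 from -0.15 to 0.69; with IVF, IL1B from -0.25 to 0.94, CXCL8 from -0.019 to 0.82 and IL6 from 0.68 to 1.41. Against interferon tau, IL1B ran from 1.75 to 2.28, CXCL8 from 1.57 to 2.18 and IL6 from 0.80 to 1.40. For AI against IVF, IL1B ran from -1.13 to 0.33, CXCL8 from -0.58 to 0.37 and TNF from -0.44 to 0.071. By sex, IL1B ran from -1.57 to 0.66, CXCL8 from -1.28 to 0.084, IL6 from -1.01 to 0.17 and TNF from -0.47 to 0.44. Length slopes ran from -1.62 to 1.23 for IL1B, -1.04 to 0.49 for CXCL8 and -0.26 to 0.46 for TNF. Uterus F values ran from 2.09 to 4.04 for IL1B, 1.62 to 3.94 for CXCL8 and 2.53 to 4.44 for TNF, and the treatment F of IL6 from 3.28 to 7.99. Paired means ran from -0.20 to 0.11 (IL1B) and -0.011 to 0.55 (CXCL8) for AI minus Control, -1.07 to 0.36 (IL1B), -0.82 to 0.14 (CXCL8) and -0.22 to 0.15 (TNF) for AI minus IVF, -0.45 to 0.35 (IL1B) and -0.082 to 0.56 (CXCL8) for IVF minus Control, and -0.39 to 0.013 (TNF) for IFNT minus Control. The r over uteri ran from -0.24 to 0.55 for CXCL8 and TNF and from -0.0033 to 0.73 for IL1B and TNF. Depth limits TNF most, at 5 to 58 reads a library.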
